A study of Culter alburnus with 6 samples.

Results

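The 200 loci described here were the steadiest of the well-expressed loci in 6 RNA sequencing libraries of the topmouth culter, Culter alburnus, a carp-like fish of fresh water. They were chosen by a rule on the measured values. Read counts were divided by DESeq2's median-of-ratios size factors, loci with a mean normalized count of 200 to 15000 were kept, and the 200 with the lowest ratio of the highest to the lowest of the 6 normalized counts were taken. The 200 members are 1.44% of the 13930 loci in that abundance window and 0.709% of the 28228 loci in the table. All 200 passed the low-count filter of the group test described further on.

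The study compared 3 libraries labelled wt (controls, here control 1, 2 and 3) with 3 labelled treat (cryopreserved 1, 2 and 3). The animals of the treat group had been vitrified and rewarmed as tail-bud embryos. The sample labels call the material embryos of both groups, whereas the study design speaks of larvae from cryopreserved embryos, and the age at sampling is not stated. The labels do not say whether the treat libraries come from water-bath warming or from laser warming with gold nanorods, nor whether replicates of a group were separate cultures or animals, and a p-value here therefore reflects a spread between libraries that may be technical.

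Vitrification cools a sample into a glass without ice crystals, with the help of cryoprotectants, and warming has to be fast enough that ice does not form on the way back. Expression studies of such embryos, above all by quantitative PCR, divide the level of a gene of interest by that of reference genes that are taken to be constant between treated and untreated animals. Genes for the cytoskeleton, for glycolysis and for ribosomal proteins are common choices in fish. Whether any member is such a gene cannot be said here: the count table and the reference annotation give locus tags only and do not pair them with gene names, so no function is assigned to any locus.

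Library composition touches every value below. Control 3 and cryopreserved 1 differed from the other libraries, with 35.3% and 34.9% of their counts in their 100 most abundant loci, against 21.5% to 25.2% elsewhere. Library totals lay between 26611022 and 30795972 counts, and were thus 1.20 and 1.27 times the size factor in control 3 and cryopreserved 1 but 0.881 to 0.927 times in the others, with both scaled to a geometric mean of 1. In RNA from whole animals, fewer cells of a type and less RNA per cell cannot be told apart, and a change shared by most loci is removed by the size factors.

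The members' own values are a description of the choice and carry no test. Their highest-to-lowest ratios ran from 1.06 to 1.27 with a median of 1.23, whereas the median of the whole window was 2.41. Ratios this low were rare: 312 loci of the window were under 1.3 and 1317, or 9.45%, were under 1.5. The members' coefficient of variation over the 6 libraries had a median of 7.70% and reached 10.9% at most, against a median of 32.4% in the other 13730 loci of the window. No member left the range of 84.4% to 118.7% of its own mean in any library.

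ABG768_026878 had the lowest ratio, 1.06. Its normalized counts were 352, 350.1 and 361 in controls 1, 2 and 3 and 365, 355 and 373 in cryopreserved 1, 2 and 3. The ranges of the groups overlapped. Its 6 counts varied less than counting error gives on average, which a choice of the lowest ratios favours. ABG768_010504, with a ratio of 1.09, had 817, 842 and 786 in the controls and 819.5, 857 and 834 in the cryopreserved libraries. Its lowest value was in control 3 and its highest in cryopreserved 2. These were the only loci of the window with a ratio under 1.1.

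ABG768_008841 stood at 2006, 1949.9 and 2109.6 normalized counts in the controls and at 2096, 1943 and 1909 in the cryopreserved libraries, a ratio of 1.11. Control 3 and cryopreserved 1, which stood apart in overall expression, held its highest values. ABG768_009333 had 3032, 2911 and 3058 in the controls and 3221, 3006 and 3222 in the cryopreserved libraries, again a ratio of 1.11, with cryopreserved 1 and 3 nearly level at the top. ABG768_010475 had 2012, 1913 and 1976 in the controls and 2022, 1807 and 1812 in the cryopreserved libraries, a ratio of 1.12, and both its highest and its lowest value were in the cryopreserved group.

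The next 5 members had ratios of 1.13 to 1.14. ABG768_009949 had normalized counts of 1622, 1591 and 1789 in the controls and 1608, 1799.7 and 1618 in the cryopreserved libraries, with control 3 and cryopreserved 2 above the other 4. ABG768_004668 had 2250.4, 2467 and 2223 in the controls and 2353, 2179 and 2196 in the cryopreserved libraries, with control 2 highest. ABG768_025937 was at 4232, 4229 and 4216 in the controls and at 3737, 3744 and 4158 in the cryopreserved libraries. Every control was above every cryopreserved library for this locus on this scale, while on the TMM scale the groups overlapped. ABG768_026618 had 1035, 981 and 955 in the controls and 976, 911 and 971 in the cryopreserved libraries. ABG768_022181 had 892, 973 and 896 in the controls and 853, 959 and 941 in the cryopreserved libraries, and its lowest value was in cryopreserved 1. The groups overlapped for ABG768_026618 and ABG768_022181.

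**Figure D1:**
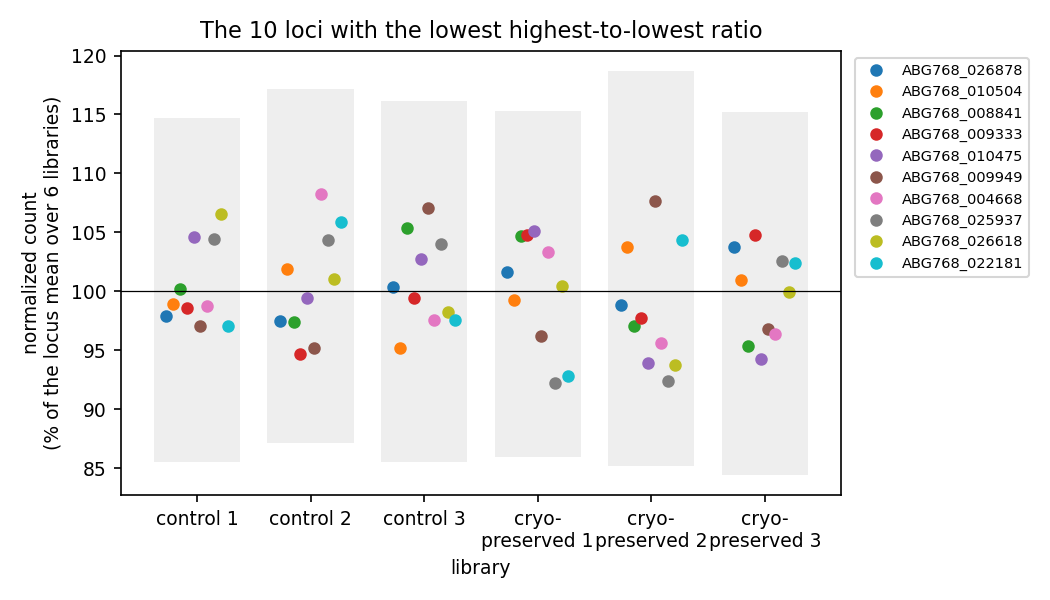
Normalized counts of the 10 loci with the lowest ratio in each of the 6 libraries (x axis), as a percentage of the locus mean over the 6 libraries (y axis). Each coloured point is 1 locus, and the grey boxes give the full range of all 200 members in that library. The 10 loci stayed between 92.2% and 108.3% of their means, and all 200 members between 84.4% and 118.7%.

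The abundance window bounds the members' levels, which are normalized counts and not levels per transcript length. ABG768_011707 had the highest mean, with 12569, 11994 and 13359 normalized counts in the controls and 14641, 13048 and 12939 in the cryopreserved libraries. ABG768_010524 came next, with 11188.5, 9429 and 9242 in the controls and 9758, 10336 and 9407 in the cryopreserved libraries. The highest value of the former was in cryopreserved 1 and that of the latter in control 1. At the lower end, ABG768_027325 had 216, 185 and 215 in the controls and 209, 228 and 210.2 in the cryopreserved libraries. ABG768_004850 had 234, 234 and 199 in the controls and 246, 249 and 234 in the cryopreserved libraries, where the low value of control 3 set its ratio.

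The place at which the list ended was arbitrary, as loci followed each other closely there. The last member, ABG768_019801, had 1463, 1609 and 1375 normalized counts in the controls and 1371, 1270.3 and 1587 in the cryopreserved libraries, a ratio of 1.2667. The one before it, ABG768_013065, had 255, 259.8 and 222 in the controls and 205, 243 and 238 in the cryopreserved libraries. The first locus outside, ABG768_009224, had 2889, 3188 and 3399 in the controls and 3661, 2927 and 3364 in the cryopreserved libraries, a ratio of 1.2672. ABG768_026153 followed, with 1297, 1623 and 1645 in the controls and 1505, 1479 and 1554 in the cryopreserved libraries. Nothing in the values of these loci sets those inside apart from those outside.

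Most members varied more than counting error, although they were the steadiest loci of the window. The chi-square of the 6 counts against their size factors, divided by its 5 degrees of freedom, is about 1 for counting error alone. It had a median of 8.03 in the members and of 73.6 in the other loci of the window. It was at or under 1 for 3 members, which were ABG768_026878, ABG768_010504 and ABG768_012577, and for 0 other loci. Among counts of 1 to 20 in the table, 59.9% to 68.5% were even, depending on the library, so a count may not be 1 sequenced fragment. Up to a value of 2 there were 19 members and 3 other loci. The members' lowest raw count was 177 and their highest 14739.

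Members were found more often among abundant loci, where counting error is a smaller share of the count. Its part in this was not tested. With the window parted into 5 classes of 2786 loci by mean normalized count, the 2 lowest classes held 16 and 14 members, the middle class 33, and the 2 highest 65 and 72. The median ratio of the classes fell from 2.98 in the lowest to 2.13 in the next-to-highest and was 2.14 in the highest.

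**Figure D2:**
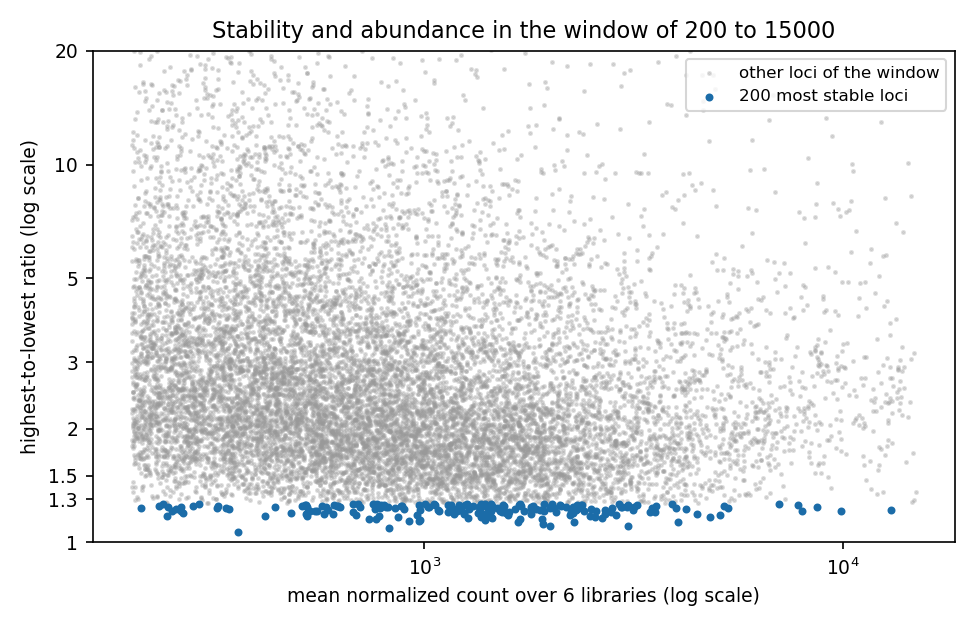
Highest-to-lowest ratio (y axis, log scale) against the mean normalized count over 6 libraries (x axis, log scale) for the loci of the window. The 200 members (blue) lie under a ratio of 1.27 over the whole range of abundance, with most of them in the upper part; 375 other loci with a ratio over 20 and 87 with 0 counts in a library are outside the plot.

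Very short loci were scarce among the members. The span of a locus, introns included, in the annotation of assembly ASM4018292v1 had a median of 16487 bases in the members and of 12232 bases in the other loci of the window. In 5 classes of the window by span, the shortest, up to 5072 bases, held 6 members, the next 3 held 41, 52 and 63, and the longest, from 31994 bases, held 38. From the lowest class of abundance to the highest, the members' median span was 8974, 15355, 12608, 18590 and 17327 bases. That of the other loci was 8402, 11113.5, 12575, 15183 and 14154.5 bases, so the middle class was nearly level. Several libraries had levels that followed span. Across the 13730 other loci, Spearman's rho between span and the deviation of a library from the locus mean came to -0.477 for control 3, 0.356 for control 2 and 0.244 for cryopreserved 1. Across the 200 members, whose deviations the choice kept small, the values were -0.165, 0.189 and 0.0141. Loci of 1 library share its depth and preparation and are not independent.

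The annotation order held 5 pairs of adjacent members, in which 9 members took part. The trio ABG768_024639, ABG768_024640 and ABG768_024641 made up 2 of these pairs. ABG768_024640 had 1155, 1231 and 1023 normalized counts in the controls and 1171, 1123 and 1148 in the cryopreserved libraries, while ABG768_024641 had 2199.7, 2369.9 and 2068 in the controls and 2482, 2109.6 and 2567 in the cryopreserved libraries. The former was highest in control 2 and the latter in cryopreserved 3. The rule did not use position, but it ranked the loci next to a member by ratio wherever they were in the window. Of 388 loci next to a member that were not members themselves, 235 were in the window. Their median ratio was 2.46, against 2.44 in the rest of the window outside the list. Both sets were left outside the list by the rule, so these medians are a description.

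The group comparison asks how transcription after cryopreservation differs from that in controls. The members were chosen for small differences over these same 6 libraries, so their values in it are a description. With edgeR's quasi-likelihood test, adjusted by the Benjamini-Hochberg method, 0 of 200 members passed an adjusted p of 0.05, where 0% of all 21846 tested loci did. At an unadjusted p under 0.05 there were 0 members, against 0.581% of all loci tested. DESeq2 with its own filtering called 0 members and 5 loci in all, and limma-voom called 0 of either. With limma-voom, an unadjusted p under 0.05 went to 0 members and to 100 of the same 21846 loci. With DESeq2 it went to 0 members and 364 loci. DESeq2's loci were not limited by the low-count filter, and their number is not given. Its count is therefore not comparable with the others. The members' fitted log2 fold changes ran from -0.16 to 0.21 with a median of 0.02, the same median as that of all tested loci to this precision. On edgeR's TMM scale, 120 of the 200 fitted changes were above 0 and 80 below. The balance followed the scaling, with 107 above and 93 below on DESeq2's size factors, 74 and 126 on upper-quartile factors, and 45 and 155 when the library size was the single scaling. The median of all tested loci moved with it, to 0.00, -0.03 and -0.06.

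The members with the largest fitted changes are given as a description, since the choice limited their differences in advance. ABG768_007555 had 2186, 2099.8 and 2259 normalized counts in the controls and 2527, 2619 and 2360.2 in the cryopreserved libraries. Its means were 2182 ± 79.7 and 2502 ± 131 (SD, n = 3 each), a ratio of 1.15, and the fit gave it a log2 fold change of 0.21 ± 0.25 (SE). All 3 cryopreserved libraries were above all 3 controls. ABG768_019147 had 795, 814 and 779.6 in the controls and 961, 899 and 867 in the cryopreserved libraries, a log2 fold change of 0.21 ± 0.27 (SE), and its groups did not overlap either. An SD here is that of the locus's own 3 values, whereas edgeR's spread for 1 locus borrows from that of all loci. The SE and the test of a locus therefore do not rest on its own spread alone.

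On the other side, ABG768_009832 had 738, 695 and 725 normalized counts in the controls and 583, 672 and 649 in the cryopreserved libraries. Its means were 719 ± 22.1 and 635 ± 46.1 (SD, n = 3 each), and the fit put its log2 fold change at -0.16 ± 0.28 (SE). Its groups did not overlap, with cryopreserved 1 lowest. ABG768_005770 had 2968, 3540.4 and 3292.5 in the controls and 2814, 2898 and 2950.3 in the cryopreserved libraries, a log2 fold change of -0.16 ± 0.26 (SE). Its control values were spread more widely than the gap between the groups, which overlapped on the TMM scale. None of these 4 loci passed edgeR's test, in which the lowest adjusted p of any member was 0.999955.

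In 14 members the TMM-scaled levels of the groups did not overlap, 12 higher and 2 lower in the cryopreserved libraries. The shares over all tested loci were 3.67% in either direction, 1.84% higher and 1.82% lower. As the choice used the same values, nothing is read from the members' count.

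The intervals of the members' differences were wide beside the differences themselves. With limma-voom, whose spread for 1 locus borrows from that of all loci, the 95% interval of a member's log2 fold change extended a median of 0.58 to either side of the estimate, and that of all tested loci a median of 1.16. The interval lay wholly within a 2-fold change for 200 of 200 members, against 21.1% of all tested loci. It lay within a 1.5-fold change for 16 members and 18 of all 21846 tested loci, and within a 1.3-fold change for 0 of either. As the members were chosen for small differences and a small spread in these libraries, nothing is read from these gaps. The lowest bound of any member was -0.92 and the highest 0.97. Every member's interval thus reached beyond a 1.3-fold change in at least 1 direction.

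Whether steadiness carried over to a library outside the choice was read by leaving out each library in turn. Size factors and the 200 lowest ratios were taken from 5 libraries, and the distance of the sixth from their mean was measured as an absolute log2 ratio, centred on the median of the window. In each of the 6 libraries the chosen loci were nearer to the other 5 than the remaining loci of the window were. For control 1 the median distance was 0.15 against 0.31, and for control 2 it was 0.14 against 0.30. Cryopreserved 2 had 0.19 against 0.37, and cryopreserved 3 had 0.13 against 0.21. It was larger in both libraries that stood apart, at 0.40 against 0.54 in control 3 and 0.33 against 0.57 in cryopreserved 1. The 6 lists share libraries and loci, so these values are a description, without a test.

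The share of chosen loci within 1.3-fold of the other 5 libraries shows the same division. This share was 87% for control 1, 91% for control 2, 83.5% for cryopreserved 2 and 93.5% for cryopreserved 3, against 50.9% to 76.2% of the other loci of the window. In control 3 it was 48.5%, and 36.3% of the other loci were as near. In cryopreserved 1 it was 54.5%, against 35.3% of the other loci. Of the 200 chosen loci, 14 were more than 2-fold away in control 3, 10 of them lower and 4 higher, and 6 in cryopreserved 1, 2 lower and 4 higher. In the remaining libraries 0 to 2 were that far away. Over the other loci of the window, 23.2% were more than 2-fold away in control 3 and 25.1% in cryopreserved 1.

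**Figure D3:**
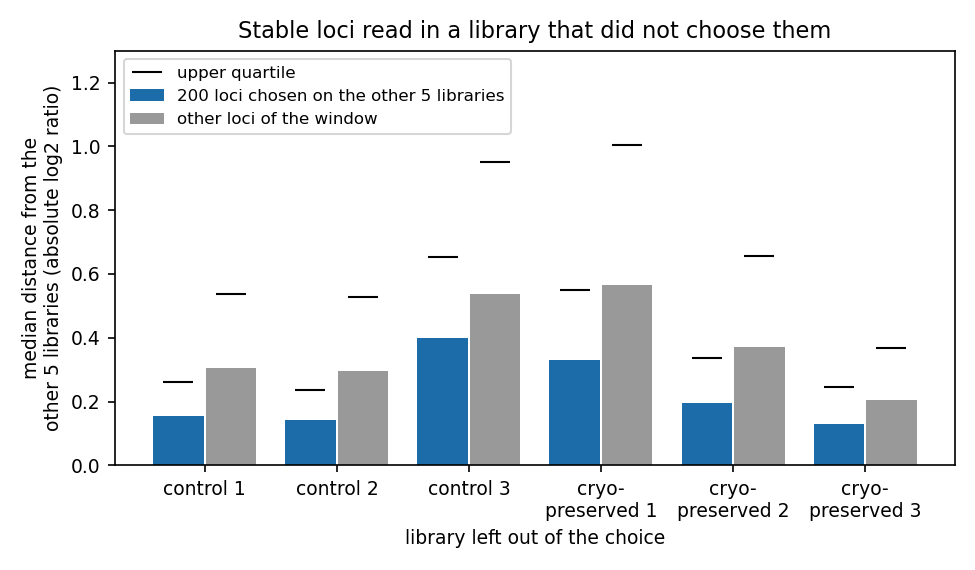
Median distance of the library left out from the other 5 (y axis, absolute log2 ratio) for the 200 loci chosen on those 5 (blue bars) and for the other loci of the window (grey bars), for each library left out (x axis). Black marks are upper quartiles. The blue bars are lower than the grey in all 6 libraries, and highest in control 3, at 0.40, and cryopreserved 1, at 0.33.

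The gap was also present among loci of like abundance. In each library left out, the window was parted into 5 classes by mean normalized count, and the median distance of the chosen loci was below that of the others in 30 of 30 classes. The classes held 7 to 71 chosen loci, and some gaps were slight: 0.225 against 0.231 in the next-to-lowest class for cryopreserved 3, with 19 chosen loci, and 0.62 against 0.64 in the lowest class for cryopreserved 1, with 9. In the most abundant class the distance was 0.12 against 0.27 for control 1, 0.35 against 0.45 for control 3 and 0.28 against 0.54 for cryopreserved 1. The distance also grew by degrees with the ratio over the other 5 libraries. With the window parted into 10 classes by that ratio, the distance went, from the steadiest class to the least steady, from 0.17 to 0.57 in control 1, from 0.41 to 0.78 in control 3, from 0.34 to 0.76 in cryopreserved 1 and from 0.14 to 0.33 in cryopreserved 3. In cryopreserved 1 the class before the last, at 0.80, was above the last.

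**Figure D4:**
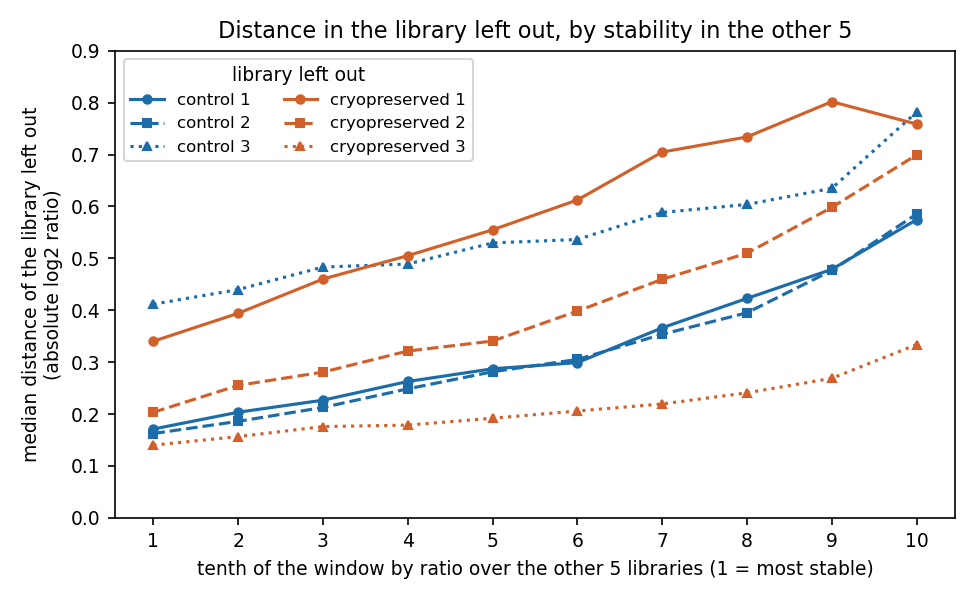
Median distance of the library left out (y axis, absolute log2 ratio) for 10 equal classes of the window ordered by their ratio over the other 5 libraries (x axis, 1 the steadiest). Each line is 1 library left out, controls blue and cryopreserved libraries orange. The lines rise, from 0.14 to 0.33 in cryopreserved 3 and from 0.41 to 0.78 in control 3, and the steadiest class in control 3 lies above the least steady in cryopreserved 3.

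Between the libraries that stood apart, the median direction of the distance of the chosen loci differed only in the longest loci. Each library was read on its own list, chosen on the other 5 libraries, so the 2 lists were not the same loci. In cryopreserved 1 the chosen loci were higher than the median locus of the window, by a median of 0.24 log2 units. With the window parted into 3 classes by span, the value was 0.15, 0.24 and 0.24 in the shortest, middle and longest class, of the same sign in each. In control 3 the median over the list was 0.07, but it was 0.43 in the shortest class, 0.20 in the middle one and -0.31 in the longest, with 43, 92 and 65 chosen loci. The other loci of the window went the same way in control 3, at 0.38, 0.00 and -0.51. In cryopreserved 1 they went the opposite way with span, at -0.32, 0.09 and 0.19, and in the shortest class their sign was opposite to that of the chosen loci. In the remaining libraries the median of the chosen loci was 0.01 to 0.05 over the list. What part span or preparation had in these differences was not tested.

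Among the lists with 1 library left out, those without control 3 or cryopreserved 1 shared the fewest loci with the members. Of the 200 members, 136 were chosen again without control 1, 142 without control 2, 116 without cryopreserved 2 and 133 without cryopreserved 3. Without control 3 it was 57, and without cryopreserved 1 it was 73. Without both it was 32, the median ratio of the 200 loci then chosen over 4 libraries was 1.08, and the members themselves had a median ratio of 1.17 over these 4 and a median rank of 870.5 among 14390 loci. The loci chosen on the 4 were away from them by a median of 0.38 in control 3, with 32 of 200 more than 2-fold away, and of 0.34 in cryopreserved 1, with 13. The other loci of the window were away by 0.50 and 0.55. Of these other loci, 21.4376% were more than 2-fold away in control 3 and 25.0035% in cryopreserved 1.

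All 6 lists held 28 of the members, and a further 42 members were in 5 lists. Each of the 10 leading loci given above was in all 6, which the rule favours. Their ratios over 6 libraries were at most 1.14, and the lists of 5 libraries reached ratios of 1.18 to 1.24. Size factors were taken anew for each list, so a low ratio over 6 libraries did not by itself assure a place. At the other end 11 members were in none, as each time a library was left out other loci came before them. The steadiest of the 11 was ABG768_011107, 116th in the list, with 1363, 1381 and 1682 normalized counts in the controls and 1677, 1507 and 1359 in the cryopreserved libraries. Its level was high in both libraries that stood apart and low in 3 of the others. In all, 708 loci were in at least 1 of the 6 lists, and 519 of these were not members.

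Another reading chose loci on 1 group and took their highest-to-lowest ratio among the libraries of the other. Size factors were taken within each group, and levels were not compared between groups. A locus shifted alike in every library of a group would therefore not show. The 200 loci with the lowest ratios over the 3 controls had a median ratio of 1.05 there and 1.57 over the 3 cryopreserved libraries, where the other loci of the window had 1.81. The interquartile ranges were 1.33 to 1.89 and 1.42 to 2.62. In the cryopreserved libraries 22% of the chosen loci had a ratio under 1.3, against 15.8% of the others, and again 22% had one over 2, against 41.3%. With 1 cryopreserved library left out, the ratio was over fewer libraries, which leave less room between the highest and the lowest. Without cryopreserved 1 the medians were 1.21 against 1.32, and without cryopreserved 3 they were 1.34 against 1.66. Without cryopreserved 2 they were 1.38 against 1.41.

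The converse gave similar values. The 200 loci chosen on the cryopreserved libraries had a median ratio of 1.05 there and 1.54 over the controls, against 1.79 in the other loci. Under 1.3 were 26% of them and 15.1% of the others, and over 2 were 24.5% and 39.6%. The list from the controls and that from the cryopreserved libraries shared 6 of their 200 loci. They held 30 and 36 of the members.

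**Figure D5:**
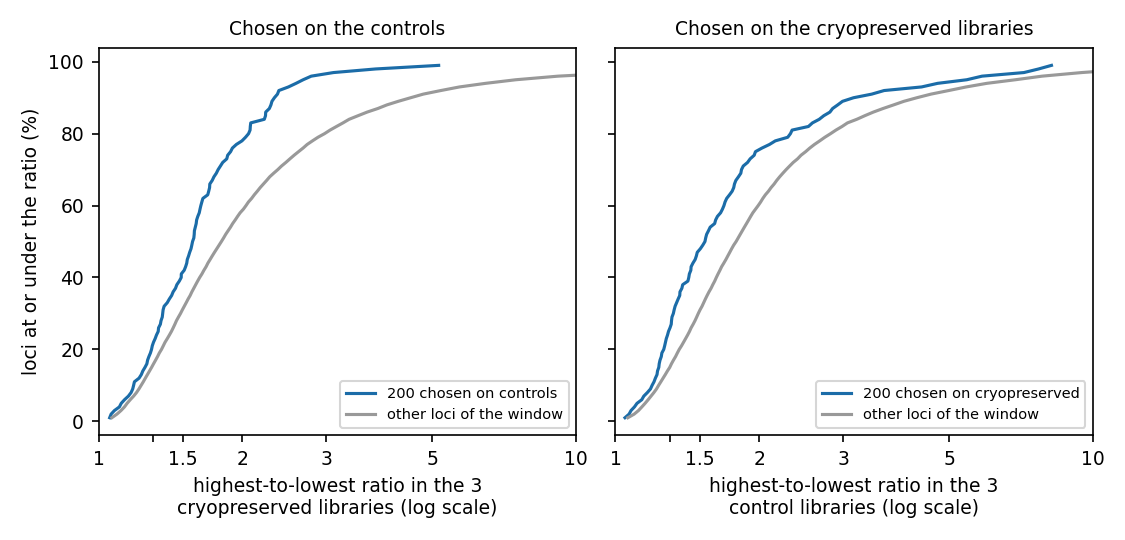
Share of loci at or under a highest-to-lowest ratio (y axis, percent) against that ratio in the group that did not choose them (x axis, log scale), for the 200 chosen loci (blue) and the other loci of the window (grey). The left panel has loci chosen on the controls and read in the cryopreserved libraries, with medians of 1.57 and 1.81, and the right panel the converse, with medians of 1.54 and 1.79.

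As a scale, the members gave nearly the same factors as all loci. Median-of-ratios factors from the 200 members alone were within 1.60% of those from all loci in 5 libraries and 2.71% above in cryopreserved 1, with both sets scaled to a geometric mean of 1. The choice was made on values divided by the latter, so this closeness follows from the rule. As a share of all counts the members took 1.43%, 1.43% and 1.08% in controls 1, 2 and 3 and 1.04%, 1.40% and 1.35% in cryopreserved 1, 2 and 3. The share was thus lowest in both libraries with more counts in their top 100 loci. Divided by library totals, the members' ratios had a median of 1.54 and reached 1.82, against a median of 1.23 on size factors. A list chosen on library totals shared 7 of its 200 loci with the members, one on TMM factors 185 and one on upper-quartile factors 135.

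The highest value of a member was most often in cryopreserved 1, in 55 of 200 members, and in control 3, in 40, and least often in cryopreserved 3, in 18. The lowest value was spread more evenly, with 27 to 37 members in each library. In the other loci of the window, cryopreserved 1 was highest in 32.3% and lowest in 26.0%, control 3 was highest in 25.2% and lowest in 27.0%, and cryopreserved 3 was highest in 4.23% and lowest in 7.60%.

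The label of these loci as candidates for reference loci unchanged by embryo vitrification goes further than the values. They were steady over the 6 libraries because they were chosen to be. Lists made in the same way were nearer to a library outside the choice than other loci were. The share within 1.3-fold was 48.5% in control 3 and 54.5% in cryopreserved 1, against 36.3% and 35.3% of the other loci. It was 83.5% to 93.5% in the remaining libraries. How the 200 members would vary in further libraries was not measured.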

How the data were processed

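Per the labels' protocols, poly-A messenger RNA was taken from Trizol extracts and read on Illumina instruments. Raw counts per locus were deposited by the authors in 1 table of 28228 loci and 6 libraries. The sources used here do not name the genome build, the aligner, the counter or the strandedness of counting, and no coordinates are printed. All 28228 locus tags occur in the annotation of assembly ASM4018292v1, which gives 0 gene symbols other than the tag; no sequence of the loci was used here.

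Columns were matched to samples by title. The members and the lists and tests were chosen with earlier results of these data known. Groups were compared with the quasi-likelihood test of edgeR 4.0.16 in R 4.3.3, with its default expression filter and TMM normalization on all 6 libraries, with Benjamini-Hochberg adjustment over 21846 loci. A standard error is the log2 fold change divided by the square root of F. Intervals came from limma-voom (limma 3.58.1). DESeq2 1.42.0 was an alternative. Other values were computed in Python 3.11.15 with a pseudocount of 0.5 normalized counts in log2 distances and in ratios read across groups. The procedures were tested on simulated data. Named loci were the 10 with the lowest ratio, the 2 highest and 2 lowest means, 2 on each side of the list's end, the 2 largest and 2 smallest fitted changes, and the members in every list of 5 libraries (the first 10 by ratio). ABG768_012577, ABG768_011107 and the adjacent trio were named after their values were seen.

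Alternatives were other scalings, filters, windows and tools, the replicate number as a block, and 1 library left out at a time. Leaving out control 3 and cryopreserved 1 together, and leaving out libraries in the reading across groups, were added after seeing the data.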

Additional observations from a re-analysis of the deposited data

How the results depend on the processing

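The count of members past the threshold was 0 under every alternative run, and that of all loci was 0 except with DESeq2 and its own filtering, which called 5. With the replicate number as a block both were 0 and the members' median log2 fold change was 0.02. Over the loci of the window, the deviations of libraries with the same number were correlated at -0.18, -0.43 and -0.02 for numbers 1, 2 and 3. Deviations from a mean over the same libraries tend to correlate below 0, and no values for libraries of different numbers are given beside these. The correlations therefore do not settle whether replicates were paired. Over all alternatives that median lay between -0.06 with library size only and 0.03 without cryopreserved replicate 2; as the members were chosen for small differences, this is no sign of stability. Of the 200 members, 7 were chosen again with library size only, 57 to 142 when 1 library was left out, and 32 without control 3 and cryopreserved 1. The median ratio of the loci chosen was 1.14 to 1.20 with 1 library left out and 1.08 without both, where fewer libraries leave less room between the highest and the lowest. Other scalings, abundance windows or the coefficient of variation moved it by less than that, and chose 135 to 193 members again. The distance in a library left out had a median over libraries of 0.17, against 0.34 in the other loci, and ran from 0.17 to 0.19 under the alternatives, with the chosen loci nearer in every library each time. In the TMM alternative the factors came from all 6 libraries, the one left out included. With TMM and with library size only, the distance was not centred on the median of the window. The ratio over the cryopreserved libraries of loci chosen on the controls, 1.57, was 1.21 to 1.69 with 1 library left out and 1.20 without both; the other loci then had 1.32 to 1.82 and 1.32. Apart from the number of libraries, the cause was not tested. With 3 libraries a group, single-locus changes inside the intervals given above remain possible. These intervals are not adjusted for the number of loci and are not limits of detection.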
